A study of Mus musculus with 12 samples.

Results

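Nitric oxide to cyclic GMP signalling was followed through 5 genes in cells sorted from mouse liver: Nos3, Gucy1a1, Gucy1b1, Pde5a and Prkg1. They were taken by symbol from 54227 gene symbols, and all 5 passed the filter for testing, a mean of at least 10 normalised counts over the 12 libraries. They were picked because Gucy1b1 was highest in the sub population, so the levels of Gucy1b1 are a description here and carry no test. The animals were C57Bl/6 mice with Sox9EGFP, a transgene whose green fluorescence follows Sox9. After a fast of 16 h their livers were dissociated and the cells sorted by EGFP into 4 populations. These were neg (no EGFP), sub (a level below low), low and high, each of 12000 cells per library and 3 libraries. All 4 populations came from animals with the same transgene, strain and fast, no other treatment was named, and age and sex were not given in the sources used here. The neg population is defined by the absence of EGFP and not by a marker of a cell type, so it can mix cell types, as can each of the other gates.

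Nitric oxide made by the endothelial synthase, Nos3, diffuses into neighbouring cells and binds the haem of soluble guanylyl cyclase, a dimer of an alpha and a beta subunit encoded here by Gucy1a1 and Gucy1b1. The cyclase turns GTP into cyclic GMP, which activates the cGMP-dependent protein kinase Prkg1 and is broken down by the phosphodiesterase Pde5a. In the liver, sinusoidal endothelial cells are a known source of nitric oxide, and stellate cells and vascular smooth muscle, which contract and relax around the vessels, are known responders.

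The libraries held 8775387 to 15535588 reads, recovered from the deposited normalised counts. Sox9, the gene that the reporter follows, had 1 read in neg 1 and none in neg 2 and neg 3, and 3707 to 17140 normalised counts in the other 9 libraries. The spread between libraries of 1 population was wide, with a median standard error of 2.35 on the log2 scale for a difference between populations. Nothing in the labels says that the 3 libraries of a population came from separate animals, so p-values measure the spread between these libraries only. In sorted bulk samples, fewer cells of a type and less RNA per cell cannot be told apart.

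The cyclase beta subunit gene Gucy1b1 was the member with the narrowest distribution. It had 961, 368 and 1403 normalised counts in sub 1, 2 and 3 (911 ± 520, SD, n = 3), from 1304, 321 and 1407 reads. A single read was counted in neg 1, worth 0.691 normalised counts, and none in neg 2, neg 3, the 3 low or the 3 high libraries. The 3 sub libraries therefore stood above the other 9 without overlap, with sub 2 the lowest of them. Against low the mean in sub was at least 377-fold higher, and against high at least 338-fold higher, taking 3 reads in each library as the limit that a count of 0 allows. Against neg the ratio was 3954, with a counting interval from 710 to 156180, because it rests on that 1 read.

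The promoter of Gucy1b1 is shown because the expression of this gene divided the populations most sharply among the 5. It is the RefSeq sequence of the 250 bases before the annotated start, at chr3:82074712-82074961 of GRCm38.p6, minus strand, written 5′ to 3′ along the gene. Capitals mark 1 GGGCGG, whose 5′ end lies 140 bases before the start, and 2 copies of ATTGG, which is CCAAT on the opposite strand, at 78 and 24 bases.
Gucy1b1 promoter: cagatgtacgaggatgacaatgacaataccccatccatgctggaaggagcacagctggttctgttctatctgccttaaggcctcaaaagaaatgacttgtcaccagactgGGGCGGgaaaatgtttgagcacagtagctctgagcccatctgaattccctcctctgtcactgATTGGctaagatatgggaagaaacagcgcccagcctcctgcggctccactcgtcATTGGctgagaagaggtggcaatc
Both strands of this window and of all 32851 RefSeq windows of the same length were searched for 5 motifs. CCAAT was present in 33.8% of those windows, GGGCGG in 32.7%, TATAAA in 12.4%, CAGCTG in 13.0% and the CArG box, known as the site of serum response factor, in 1.47%. The Gucy1b1 window also held CAGCTG at 199 bases before the start, and neither TATAAA nor the CArG box. The motifs found are thus letters that many promoters carry, and a match is no evidence of binding.

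Gucy1a1, which encodes the alpha subunit of the same enzyme, lies 17.7 kb upstream of Gucy1b1 on the same strand. The annotated gene bodies are 82092427 to 82145789 for Gucy1a1 and 82032006 to 82074689 for Gucy1b1 on chromosome 3 (GRCm38, GENCODE M21). Gucy1a1 had 449.8, 246 and 1321 normalised counts in neg 1, 2 and 3 (672 ± 571, SD, n = 3) and 679, 1388 and 1163 in the sub libraries (1077 ± 362). It had 22.3, 17.8 and 0.822 in low (13.6 ± 11.3) and 1.73, 26.3 and 4.90 in high (10.97 ± 13.4). Neg and sub overlapped, as did low and high, and every neg and sub library lay above every low and high library. The mean in sub was 78.9 times that in low and 98.2 times that in high, and the mean in neg was 49.3 and 61.3 times those. These folds lean on single libraries: without high 2 the fold over high was 325 for sub and 203 for neg, and without neg 3 that of neg was 25.5 over low and 31.7 over high.

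None of the 6 pairwise differences of Gucy1a1 passed the test, limma on log2(normalised count + 1) with Benjamini-Hochberg adjustment over 16128 genes at 0.05. The log2 difference was -6.80 ± 2.04 (SE) for low against sub (adjusted p = 0.156), -7.09 for high against sub (adjusted p = 0.121), -5.83 for low against neg (adjusted p = 0.127) and -6.12 for high against neg (adjusted p = 0.1). For sub against neg it was 0.97 ± 2.04 with a 95% interval from -3.30 to 5.23 (adjusted p = 0.953), so a sizeable difference in either direction was not detectable. The limma test across the 4 populations gave an adjusted p of 0.0585 for Gucy1a1. DESeq2 on the recovered reads placed all 4 differences between neg or sub and low or high past the threshold, and edgeR none of them.

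The levels of the 2 subunit genes in neg and sub are set side by side as a description, since Gucy1b1 was chosen for its peak in sub. A difference between the 2 genes was not tested. In neg, 651, 201 and 1368 reads of Gucy1a1 were counted beside 1, 0 and 0 reads of Gucy1b1. In sub, the ratio of Gucy1b1 to Gucy1a1 in normalised counts was 1.41, 0.265 and 1.21, so that sub 2, the library highest in Gucy1a1, was the lowest in Gucy1b1. Per kilobase of annotated exon the mean level in sub was 155 ± 51.9 for Gucy1a1 and 232 ± 132 for Gucy1b1 (SD, n = 3), which overlapped between libraries, while in neg it was 96.5 ± 82.0 for Gucy1a1. The low and high libraries had 1 to 30 reads of Gucy1a1 and none of Gucy1b1. The alternative subunit genes were scarce: Gucy1a2 reached at most 73.3 normalised counts, in a sub library, with a mean of 8.27 over the 12 libraries that left it below the filter, and Gucy1b2 was at 0 in all of them.

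**Figure D1:**
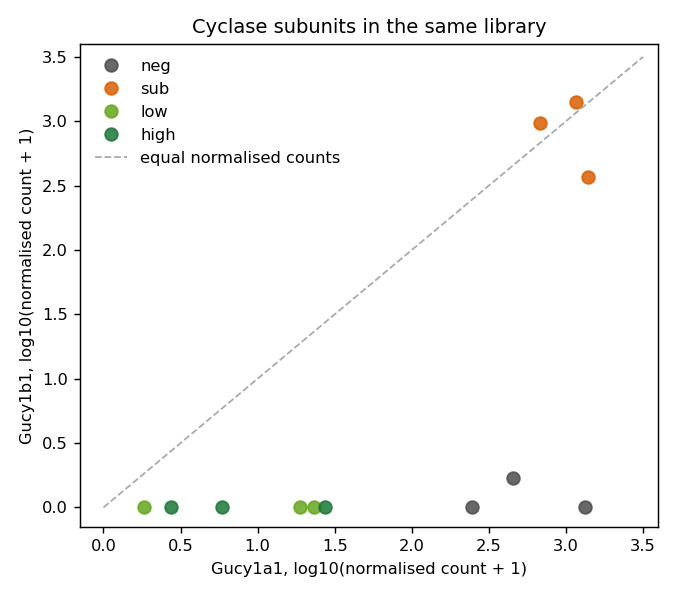
Gucy1b1 (y axis) against Gucy1a1 (x axis) in each library, both as log10(normalised count + 1), with 1 point per library coloured by population and a dashed line at equal values. The 3 neg points lie along the bottom at Gucy1a1 values of 246 to 1321, and the 3 sub points are the only ones with Gucy1b1 above 1 normalised count.

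Nos3, the synthase that makes nitric oxide in endothelium, was counted in neg and sub and had no read in low or high. It had 2955, 70.9 and 963 normalised counts in neg 1, 2 and 3 (1330 ± 1477, SD, n = 3) and 631, 157 and 1668 in sub 1, 2 and 3 (818 ± 773). No read was counted in any of the 6 low and high libraries. Neg and sub overlapped fully, and in each of them the library numbered 2 was the lowest. The mean in neg was at least 551-fold higher than in low and at least 494-fold higher than in high, and the mean in sub was at least 339-fold and at least 304-fold higher. Without neg 1 the first 2 bounds were 214 and 192, and without sub 3 the last 2 were 163 and 146.

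Nos3 fell in low against neg (limma log2 difference -9.20 ± 2.37, 95% interval -14.17 to -4.24, adjusted p = 0.0296) and in high against neg (the same difference, adjusted p = 0.0293). These log2 values depend on the pseudocount, since low and high were at 0. The call for low against neg was lost when neg 1, neg 3 or any low library was left out, and that for high against neg when neg 1, neg 3 or any high library was left out, with adjusted p from 0.0644 to 0.0981. Low against sub and high against sub had a log2 difference of -9.10 and did not pass (adjusted p = 0.0899 and 0.0803). Between sub and neg the difference was -0.10 ± 2.37, with a 95% interval from -5.07 to 4.87 (adjusted p = 1). Across the 4 populations Nos3 passed the limma test with an adjusted p of 0.0151. Nos3 lies at 24364810 to 24384474 on chromosome 5 and shares exon bases with Atg9b on the other strand. Atg9b reached at most 52.2 normalised counts in any library, and whether counting used strand was not given in the sources used here.

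Prkg1, the kinase that cGMP activates, was highest in neg, lower in sub and at or near 0 in most of the brighter libraries. It had 1623, 1567 and 1049 normalised counts in neg 1, 2 and 3 (1413 ± 316, SD, n = 3) and 221, 202 and 296 in sub (239.6 ± 50.01). Low 2 held 2 reads, worth 1.70 normalised counts, and low 1 and low 3 none, while high 1 held 34.6 and high 2 and high 3 none. The 3 neg libraries lay above the 3 sub libraries, which lay above the other 6, with no overlap at either step. The mean in neg was 5.90 times that in sub and 122 times that in high, where all reads came from high 1 and the fold without it was at least 515. Against the 2 reads in low the ratio was 2494, with a counting interval from 690 to 20596.

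Prkg1 fell in low against neg (limma log2 difference -9.96 ± 2.30, 95% interval -14.78 to -5.14, adjusted p = 0.015) and in high against neg (-8.72 ± 2.30, adjusted p = 0.0337). The call for low against neg held with every library left out in turn and with edgeR and DESeq2, at adjusted p up to 0.0451. That for high against neg was lost without neg 1, neg 2, neg 3, high 2 or high 3 (adjusted p from 0.0711 to 0.113) and with edgeR (adjusted p = 0.2). Although the libraries did not overlap, sub against neg did not pass, at -2.55 ± 2.30 with a 95% interval from -7.36 to 2.27 (adjusted p = 0.738). Low against sub was -7.41 (adjusted p = 0.173) and high against sub -6.17 (adjusted p = 0.311). The limma test across the 4 populations gave Prkg1 an adjusted p of 0.0248. Prkg1 spans 30564489 to 31765033 on chromosome 19. Within its introns lies Cstf2t on the other strand, which reached 1222 normalised counts in 1 library.

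Pde5a, which breaks down cGMP, varied more between libraries than between populations. It had 213, 205 and 8.69 normalised counts in neg 1, 2 and 3 (142 ± 116, SD, n = 3), 25.8, 518 and 135 in sub (226 ± 258), 148, 709 and 0 in low (286 ± 374) and 62.3, 54.6 and 0 in high (39.0 ± 34.0). The 4 populations overlapped, and low held both the highest library and 1 of the 2 libraries at 0. No contrast of Pde5a passed limma (adjusted p from 0.722 to 1), and the test across the 4 populations gave an adjusted p of 0.835. For high against low, the contrast of the 2 brightest populations, the log2 difference was -1.64 with a 95% interval from -7.37 to 4.09. Of the 3 low libraries, 1 lay above every neg and sub library, 1 within their range and 1 below it. The gene lies at 122728947 to 122859374 on chromosome 3.

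**Figure D2:**
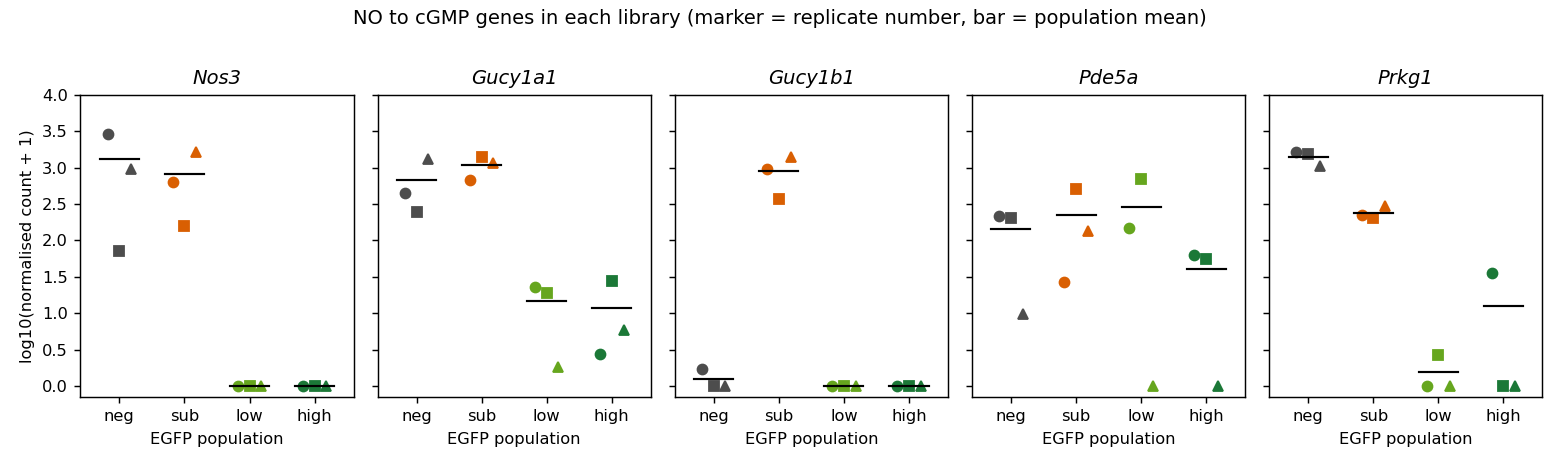
Levels of the 5 genes as log10(normalised count + 1) on the y axis against the 4 EGFP populations on the x axis, with 1 marker per library shaped by replicate number and a bar at the population mean. Gucy1b1 is above 1 normalised count in the 3 sub libraries only, Nos3 is at 0 in low and high, Prkg1 steps down from neg to sub, and Pde5a spreads over all 4 populations.

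The members' calls were set against those of all 16128 genes tested. Of the 4 members other than Gucy1b1, none passed with limma in sub against neg, where 1.19% of all genes did. The same held in low against sub, where 0.744% did, and in high against sub, where 0.986% did. Both Nos3 and Prkg1 passed in low against neg, where 4.69% of genes passed and 2.15% were lower in low. The same 2 genes passed in high against neg, where 4.69% passed and 2.25% were lower in high. Between high and low, 0.0% of genes passed with limma, while 684 had an unadjusted p under 0.05, edgeR called 34 and DESeq2 called 646, and none of the 4 members was among the calls of any of these tools. Across the 4 populations 4.23% of genes passed, Nos3 and Prkg1 among them. DESeq2 passed far more genes: 9.88% of all genes in low against sub, 14.6% in low against neg, 14.0% in high against neg and 9.21% in high against sub. With it 3 of the 4 members passed in the first 3 of these contrasts and 2 in the last.

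**Figure D3:**
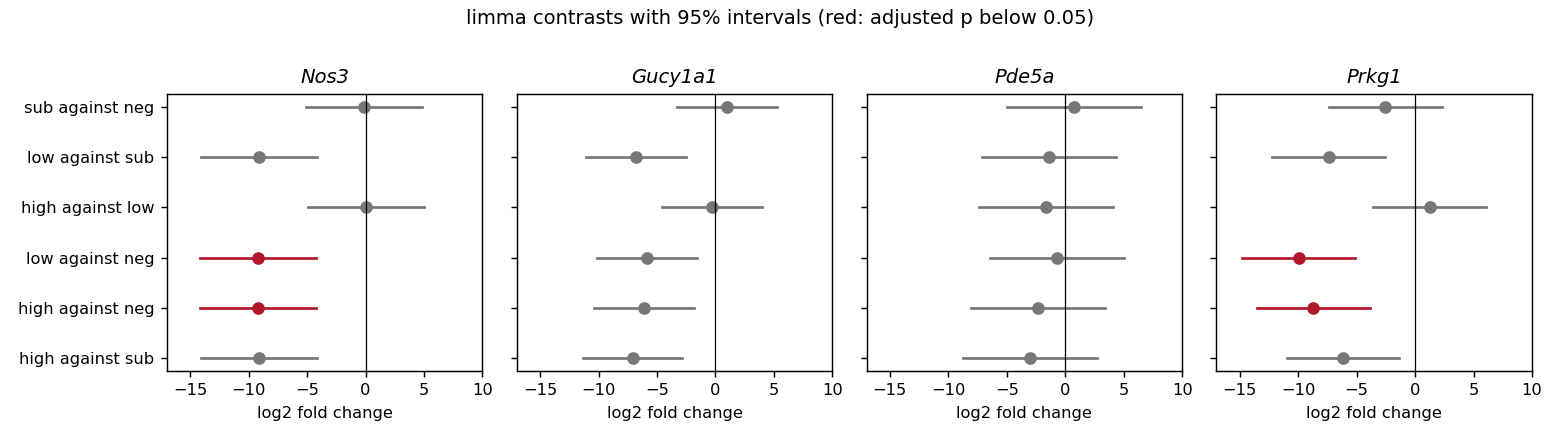
Log2 differences (x axis) of Nos3, Gucy1a1, Pde5a and Prkg1 for the 6 pairwise contrasts (y axis), as points with 95% intervals from limma, red where the adjusted p was below 0.05. The red points are those of Nos3 and Prkg1 for low against neg and high against neg, at -9.96 to -8.72, with intervals that reach from -14.78 to -3.90, and every interval for sub against neg and high against low crosses 0.

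To set the genes side by side, levels were divided by the length covered by all annotated exons of each gene. Which transcripts were expressed was not determined, so the order between genes is approximate. On that scale the mean in sub was highest for Gucy1b1 at 232 per kilobase, followed by Nos3 at 198 ± 187, Gucy1a1 at 155, Pde5a at 23.0 ± 26.3 and Prkg1 at 22.1 ± 4.605 (SD, n = 3). The first 3 of these did not differ beyond their spread, and neither did the last 2. In neg the order was Nos3 at 322 ± 357 per kilobase, Prkg1 at 130 ± 29.1, Gucy1a1 at 96.5, Pde5a at 14.5 ± 11.8 and Gucy1b1 at 0.0586, and the ranges of the first 3 overlapped. In neg the 3 Gucy1b1 values lay below those of the other 4 genes in the same libraries.

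For each member the 3 genes with the most similar profile were taken from 9609 genes with a mean of at least 100, by Pearson correlation of log2(normalised count + 1) over the 12 libraries. The libraries fall into populations, so these values describe shared profiles and carry no p. For Gucy1b1 they included Itga11 (0.94) and Vegfc (0.89). Itga11, a collagen-binding integrin, had 671, 228 and 869 normalised counts in the sub libraries and 49.1 in neg 1, and Vegfc, a growth factor for lymphatic endothelium, had 95.3 in neg 1. For Gucy1a1 they were Tgfbi (0.96), Adgra2 (0.95) and Podn (0.95), the first and last of them genes of extracellular matrix proteins. Prkg1 was closest to Irf8 (0.98), Gimap6 (0.98) and Cyyr1 (0.97), and Nos3 to Hsd11b1 (0.99), Clec14a (0.98), an endothelial surface protein, and Gata2 (0.98). Pde5a was closest to Efr3a (0.91), Scpep1 (0.88) and Mrip-ps (0.87).

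The narrow pattern of Gucy1b1 was not confined to it. A rule written after its values were seen, at least 100 normalised counts in every sub library and at most 3 reads in each of the other 9, was met by 4 of the 16128 tested genes: Col28a1, Foxf1, Gucy1b1 and Pdlim3. Gucy1b1 met the rule by construction, so the count is a description and no test. Foxf1, a forkhead transcription factor of mesenchymal cells, had 106, 613 and 407 normalised counts in sub 1, 2 and 3. Col28a1, a collagen gene, had 531, 272 and 219, and Pdlim3, which encodes a protein of the actin cytoskeleton in muscle, had 219.6, 315 and 162. None of these 3 had a read in the other 9 libraries. The same rule applied to the other populations was met by 9 genes for neg, 3 for low and 1 for high.

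The rest of the pathway was described with a list of 53 other genes, of which 36 passed the filter and 6 passed in at least 1 contrast with limma: Npr1, Npr3, Pde2a, Pde1a, Kcnma1 and Rgs2. That is 16.7% of the 36, beside 6.04% of all 16128 tested genes. In sub against neg 1 of the 36 rose and none fell, in low against sub none rose and 1 fell, and in high against low none passed. In low against neg 2 rose and 1 fell, in high against neg 1 rose and 3 fell, and in high against sub none rose and 2 fell. The median log2 difference of the 36 genes was 0.46 in sub against neg, -0.21 in low against sub, -0.11 in high against low, -0.39 in low against neg, 0.15 in high against neg and 0.01 in high against sub. Over all tested genes it was 0 in the first 4 of these, 0.13 in high against neg and 0.20 in high against sub. The share of the 36 called was 2.78% for sub against neg, 2.78% for low against sub, 0% in high against low, 8.33% in low against neg, 11.1% in high against neg and 5.56% in high against sub. Over all tested genes the shares were 1.19%, 0.744%, 0.0%, 4.69%, 4.69% and 0.986%, in the same order, and 1 gene of the list is worth 2.78%. DESeq2 called 13.9% of the 36 in sub against neg, 16.7% in low against sub, 5.56% in high against low and 13.9% in each of the other 3 contrasts, beside shares of all genes of 10.5%, 9.88%, 4.01%, 14.6%, 14.0% and 9.21%. With edgeR the list shares were 8.33% in low against sub and 2.78%, which is 1 gene, in high against low, beside 1.11% and 0.211% of all genes. The single call in sub against neg was Kcnma1, which rose, but in a fit of those 2 populations alone it was Pde2a, which fell, and DESeq2 called 2 list genes higher and 3 lower there. In the other contrasts too DESeq2 called list genes in both directions, with 3 higher and 3 lower in low against sub, 1 and 1 in high against low, and 2 and 3 in low against neg, high against neg and high against sub.

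Natriuretic peptides act through receptors of which some make cGMP themselves, and 2 of the 3 tested receptor genes passed in at least 1 contrast, where 6.04% of all tested genes did. Npr3, a receptor that clears natriuretic peptides and has no cyclase domain, had 0, 85.6 and 592 normalised counts in neg 1, 2 and 3, 2817, 1998 and 1984 in sub, and 0 in all 6 low and high libraries. It fell in low against sub (limma adjusted p = 0.0478) and high against sub (adjusted p = 0.0421), its mean in sub being at least 939-fold and at least 842-fold higher. Npr1, a membrane guanylyl cyclase, had 3292, 1668 and 3309 in neg, 688, 1200 and 2275 in sub, 0, 1096 and 0 in low and 83.1, 0 and 0 in high. It fell in high against neg (limma log2 difference -9.23, adjusted p = 0.0416). The call of Npr3 in low against sub held only without neg 1 or neg 3, and that in high against sub only without neg 1, neg 3, low 2 or low 3, with adjusted p up to 0.134 when another library was left out. With the replicate number as a block both calls of Npr3 were lost (adjusted p = 0.0615 and 0.0534). That of Npr1 held only without high 1 or any 1 low library, with adjusted p up to 0.154 otherwise. The peptide genes Nppa, Nppb and Nppc, the inducible synthase gene Nos2 and the cyclase genes Gucy2c and Gucy2d were at 0 in every library.

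Among the other phosphodiesterases that use cGMP, 2 of 7 tested genes passed in at least 1 contrast, beside the same 6.04% of all tested genes. Pde2a, which cGMP stimulates, had 12665, 9753 and 6595 normalised counts in neg 1, 2 and 3, 1916, 2119 and 2935 in sub, 281, 0 and 0.822 in low, and 0 in high. It fell in low against neg (limma log2 difference -10.19, adjusted p = 0.00666), high against neg (-13.19, adjusted p = 0.000568) and high against sub (-11.16, adjusted p = 0.0122), the last of which was lost without any 1 of the 3 sub libraries, with adjusted p up to 0.0745. Pde1a, which calcium and calmodulin activate, had 182, 978 and 194 in neg, 468, 173 and 549 in sub, 8.91, 0.85 and 2.47 in low, and 1 read in high. It fell in high against neg (limma log2 difference -8.07, adjusted p = 0.0464), a call lost without any 1 of the neg or high libraries, with adjusted p up to 0.123, and with the replicate number as a block (adjusted p = 0.0687). Pde3a, which cGMP inhibits and which was picked after its values were seen, had 1304, 175 and 8.69 normalised counts in neg, 867, 1531 and 2409 in sub, 0 in the 3 low libraries and 0, 100.1 and 35.9 in high. Low against sub missed the threshold (limma adjusted p = 0.0546) and passed with edgeR (0.00723), DESeq2 (1.74e-08), a pseudocount of 5 (0.0388), a mean of at least 100 (0.0456) and without high 1 (0.0498). Pde3a was also called lower in low against neg by edgeR and DESeq2. DESeq2 called it higher in high against low (log2 difference 8.26, DESeq2 adjusted p = 0.00314) and lower in high against sub (-5.14, DESeq2 adjusted p = 0.0389). As for Nos3 and Prkg1, the low and high libraries lay below those of neg and sub for both Pde2a and Pde1a, with Pde2a in low 1 the highest of them.

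Downstream of the kinase, 2 of 7 tested genes passed in at least 1 contrast, again beside 6.04% of all tested genes, and both were higher in a brighter population than in neg. Kcnma1, the large-conductance potassium channel that the kinase is known to open in smooth muscle, had 0 reads in the 3 neg libraries and 586, 1057 and 757 normalised counts in sub 1, 2 and 3. It had 1549, 4688 and 2670 in low and 3835, 3623 and 6009 in high. Kcnma1 rose in sub against neg (limma log2 difference 9.60, adjusted p = 0.00014, at least 278-fold), low against neg (11.39, adjusted p = 8.92e-06) and high against neg (12.09, adjusted p = 3.65e-06). The first of these calls was lost in a fit of those 2 populations alone (adjusted p = 0.338). Rgs2, a kinase substrate that dampens signalling through Gq, had 146, 0 and 815 in neg, 1720, 965 and 863 in sub, 2421, 2753 and 3370 in low and 1643, 1737 and 1942 in high. It rose in low against neg (limma log2 difference 5.84, adjusted p = 0.0392; 3.03 to 7.86 with 1 library left out). The ratio of means was 8.89, and 39.1 without neg 3. The call held only without neg 2 or neg 3, with adjusted p up to 0.141 when another library was left out. The sums of biliary and of hepatocyte markers were lowest in neg as well. Summed biliary markers had means of 187, 26255, 75208 and 65134 normalised counts in neg, sub, low and high. Hepatocyte markers had 632, 6548.5, 16477 and 19508, and smooth muscle markers 9496, 11086, 701 and 430. Of the defining hepatocyte markers, Alb and Ttr were lowest in neg, Alb with means of 162, 3539, 11246 and 11927. Apoa1 went the other way, with means of 411, 116, 82.4 and 53.5 in the same order. Serpina1a was at 0 in neg, low and high, Cps1 in sub and high, and Cyp2e1 in high. The part of these cell types in the levels of Kcnma1 and Rgs2 was not tested. Among the calls of these list genes, edgeR did not make those of Npr1, Pde1a and Rgs2, DESeq2 not that of Rgs2, and a pseudocount of 0.5 not those of Npr1, Npr3 and Rgs2. Without the filter the calls of Npr1 (adjusted p = 0.0887), Npr3 (0.0875 in low against sub, 0.0755 in high against sub) and Rgs2 (0.125) were lost, and with a pseudocount of 5 that of Pde1a (0.0627). In fits of the 2 populations alone those of Rgs2 (0.227) and of Npr3 in low against sub (0.0607) were lost.

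**Figure D4:**
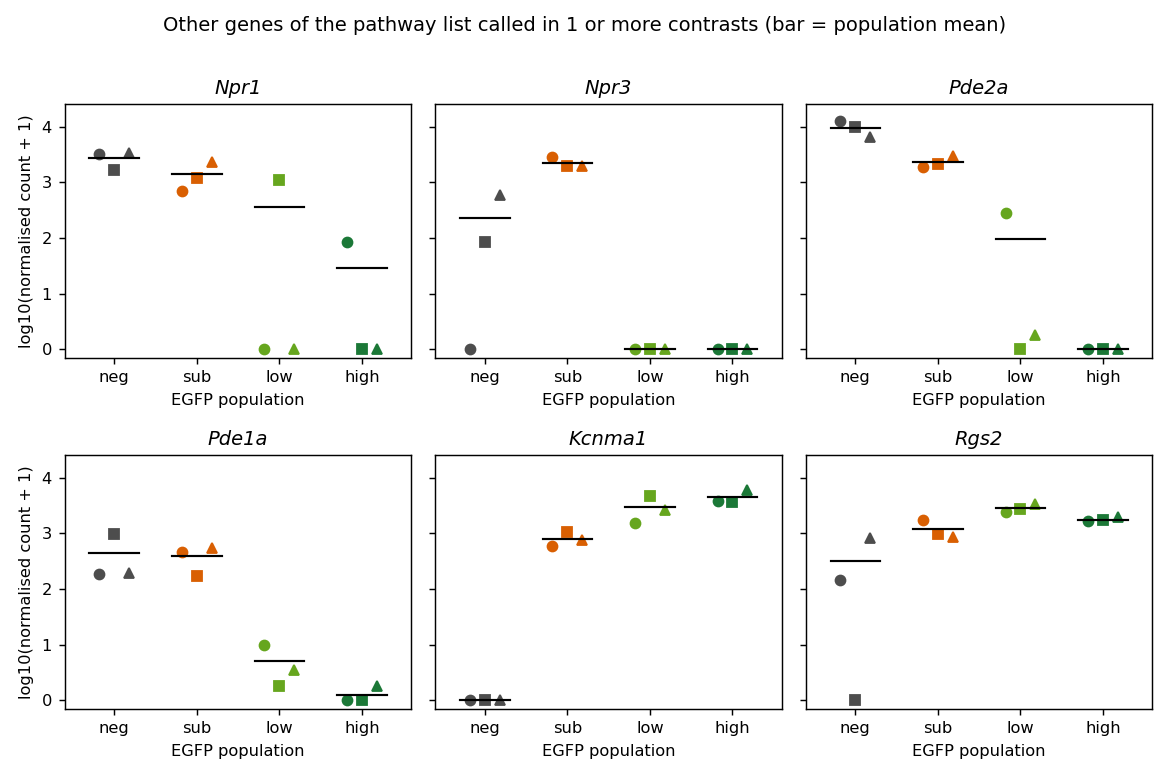
Levels of Npr1, Npr3, Pde2a, Pde1a, Kcnma1 and Rgs2 as log10(normalised count + 1) on the y axis in the 4 EGFP populations on the x axis, with 1 marker per library and a bar at the population mean. Pde2a falls from 6595 or more in neg to 0 in high, Npr3 is highest in sub at 1984 to 2817, and Kcnma1 is at 0 in neg and highest in high at 3623 to 6009.

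With limma on all 12 libraries and the filter at a mean of 10, no gene of the other roles on the list passed in any contrast. These were 6 of 6 regulators of nitric oxide synthase, 8 of 11 genes for its cofactor and substrate, 2 of 2 genes of nitric oxide removal and haem state, 2 of 2 exporters of cGMP and 1 of 2 other synthases that could be tested, the first number being those above the filter. Cav1 encodes the caveolin that holds Nos3 inactive. It had 701, 477 and 578 normalised counts in neg 1, 2 and 3 and 0 in each of the 3 sub libraries. In low it had 292, 0 and 349, and in high 214, 431 and 720. Sub against neg did not pass (limma adjusted p = 0.0735), but did without low 2 (adjusted p = 0.0167) and with DESeq2 (5e-07). High against sub did not pass either (limma adjusted p = 0.106), but did without low 2 (adjusted p = 0.0269). DESeq2 called Cav1 higher in low and in high than in sub (DESeq2 adjusted p = 1.34e-05 and 1.03e-06). Cyb5r3, the reductase that keeps the haem of the cyclase in its responsive state, ranged from 877 to 1807 over the 12 libraries. Nos1ap, which encodes an adaptor of the neuronal synthase, had 0, 2.45 and 0 normalised counts in neg 1, 2 and 3, 231, 139.7 and 389 in sub, 152, 128 and 364 in low and 27.7, 439 and 62.1 in high. Low against neg did not pass (limma adjusted p = 0.0727), but did without the filter (0.0462) and with a mean of at least 100 (0.0444), and DESeq2 called Nos1ap higher than neg in all 3 other populations. Cav1, Cyb5r3 and Nos1ap were picked after their values were seen.

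The sums of cell type markers also differed between the populations. The summed normalised counts of 10 endothelial markers were 96658 to 124752 in neg, 29592 to 40229 in sub, 712 to 2033 in low and 555 to 904 in high, the order of the population means of Pde2a. Prkg1 likewise had its highest mean in neg and the next in sub, but its mean was higher in high than in low. In low and in high 8 of the 10 were still above 3 reads in at least 1 library. Pecam1 had 442 to 668 normalised counts in low and 111 to 707 in high, while Cdh5 had at most 8.16 and 50.5 there and Erg was at 0 in both. Hepatic stellate markers summed to 9642 to 13550 in neg, 13284 to 17334 in sub, 635 to 1930 in low and 489 to 1652 in high, with Lrat at 0 in low and high. Between neg and sub the defining stellate markers went different ways, Lrat having a mean of 458 in neg and 47.3 in sub, and Reln 3591 and 6000. Smooth muscle markers summed to 4908 to 13251 in neg and 6846 to 13647 in sub, and portal fibroblast markers to 3753 to 5613 and 3500 to 10024, with Myocd at 0 in every library and Entpd2 at 0 in sub. In low and high the smooth muscle sums were 363 to 945 and the portal fibroblast sums 90.4 to 758. Their part in the levels of Nos3, Gucy1a1 and Prkg1 was not tested.

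The levels of Gucy1b1, by which these genes were chosen, are set beside the marker lists as a description. Gucy1b1 had a single read in the 3 neg libraries and 321 to 1407 reads in each sub library. The stellate, smooth muscle and portal fibroblast sums in neg overlapped those in sub. The stellate sums did so only through sub 1, at 13284 against at most 13550 in neg. Among the defining markers of these lists, Reln (3244 to 4104 in neg, 4288 to 8510 in sub) and Eln (842 to 1150, 1540 to 3866) did not overlap. The other defining markers of these lists overlapped between neg and sub, and Lrat had the higher mean in neg. Biliary markers summed to 22.2 to 412 in neg, 19824 to 35892 in sub, 66425 to 90763 in low and 61733 to 68625 in high, and hepatocyte markers to 395 to 871, 4621 to 7755, 13834 to 21610 and 17019 to 20762, and no Gucy1b1 read was counted in low or high. Kupffer cell and macrophage markers summed to at most 1348 in any library with C1qa at 0 in all 12, and lymphocyte markers to at most 1108 with Cd3e at 0 in all 12. Platelets also carry the cyclase and Pde5a, and their markers summed to 1945 to 3964 in neg, 140 to 1850 in sub, 0 to 281 in low and 0 to 236 in high, with Pf4 and Gp9 at 0 in all 12 libraries. Of the 10 platelet markers, 7 had no read in any neg library: Pf4, Itga2b, Gp9, Ppbp, Treml1, Tubb1 and Gp6. The same genes except Gp6 had none in the sub libraries. The platelet sums of neg therefore came from Gp1ba, Itgb3 and Clec1b alone. The part of these cell types in the level of Gucy1b1 was not tested.

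**Figure D5:**
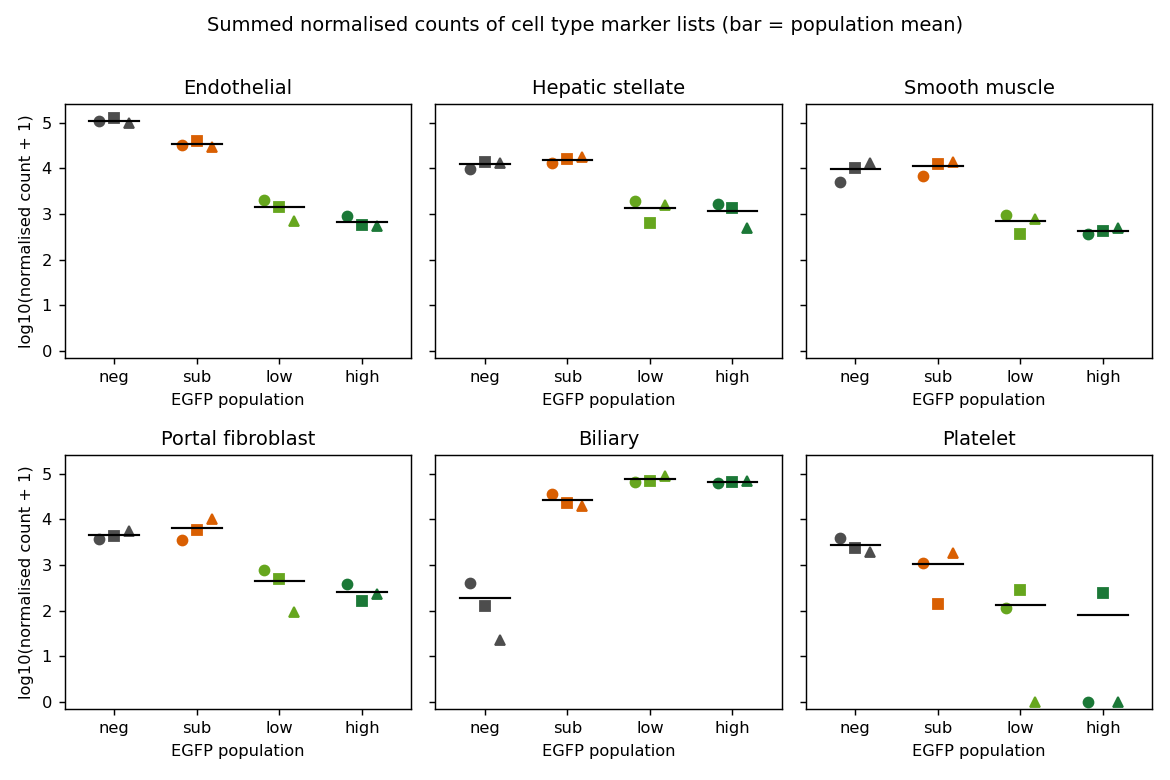
Summed normalised counts of marker lists for 6 cell types as log10(sum + 1) on the y axis in the 4 EGFP populations on the x axis, with 1 marker per library and a bar at the population mean. Endothelial sums are at least 96658 in neg and at most 904 in high, stellate sums are 9642 to 17334 in neg and sub, and biliary sums are at most 412 in neg and at least 61733 in low and high.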

How the data were processed

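Per the labels' protocols, total RNA of 12000 sorted cells underwent a DNase digestion of 30 min before library construction with the Pico version of Takara's stranded SMARTer kit, which primes at random and so also captures RNA without a poly(A) tail. What the authors deposited is a signal for every gene in 12 libraries, namely counts normalised by 1 factor per library. Salmon, DESeq2 1.26.0 and the build mm10 are named in the submitters' processing notes, without their roles, and annotation and use of strand are not given in the sources used here. In every column 100% of the values were whole multiples of 1 step (tolerance 1e-06), taken as 1 read.

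Genes with a mean of at least 10 were tested (16128) with limma 3.58.1 in R 4.3.3 (lmFit, eBayes with a variance trend) on log2(normalised count + 1), all 12 libraries, population as the only term, 6 pairwise contrasts and a moderated F test, two-sided, Benjamini-Hochberg at 0.05. Fold changes on this scale understate changes of low genes. Folds in the text are ratios of mean normalised counts; a population with no read was set to 3 reads per library, and such limits and the 95% exact counting intervals cover counting error only. The code of the fits was tested on simulated data, which does not show how the fits perform at the wide spread of these libraries. Adjusted p-values are limma's where no tool is given.

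The settings varied were the pseudocount (0.5, 5), the filter (none, or a mean of 100), equal totals, the replicate number as a block, the 2 compared populations alone, each library left out, and edgeR 4.0.16 (quasi-likelihood) and DESeq2 1.42.0 on the recovered reads. The members, the pathway list and the marker lists were chosen with earlier results of these data known. Named genes are the 5 members, list genes past the threshold in at least 1 contrast (up to 12), and the 3 genes most like each member, of which 1 is not reported here; others are said to have been picked later. Exon lengths and overlaps came from GENCODE M21, promoters from RefSeq (GRCm38.p6), which held windows for 4 of the 5 members.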

Additional observations from a re-analysis of the deposited data

How the results depend on the processing

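With 3 libraries per population and a median standard error of 2.35, fold changes well above 10 could miss the threshold. Of the results recomputed under the alternatives other than leaving out a library, 394 kept their direction and side of the threshold or moved by less than the tolerance, 21 lost the call, 9 gained it, 4 reversed and 29 counts moved. Leaving out 1 library kept 436, lost 60, reversed 15 and moved 44. Fitted values of edgeR and DESeq2 for a population at 0 depend on their prior and are no bound. Apart from the construction of a setting, the cause of these changes was not tested.

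DESeq2 called 1698 genes in sub against neg, 1593 in low against sub, 646 in high against low, 2352 in low against neg, 2257 in high against neg and 1485 in high against sub. Fits of the 2 populations alone called 73, 79, 33 and 435 in the first 4 of these, and high against low gave 34 with edgeR and 1 without the filter. Without 1 library the counts were 135 to 239, 10 to 126, 0 to 4, 445 to 763, 424 to 773 and 46 to 176, in the same order.

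Of the 36 pathway genes, DESeq2 called 5, 6, 2, 5, 5 and 5 in that order, or 13.9%, 16.7%, 5.56%, 13.9%, 13.9% and 13.9%, beside 10.5%, 9.88%, 4.01%, 14.6%, 14.0% and 9.21% of all genes. For low against sub the count was 0 with a pseudocount of 0.5, without the filter and in the fit of 2 populations, 2 with a mean of at least 100, and 3 with a pseudocount of 5 and with edgeR. It was 1 for high against low with edgeR, and 1 for high against sub with a pseudocount of 0.5 or no filter. Without 1 library the counts were 1 to 2, 0 to 1, 0 to 0, 2 to 3, 2 to 4 and 0 to 3.

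DESeq2 moved Gucy1a1 past the threshold in low against sub (-6.30), low against neg (-5.62), high against neg (-5.94) and high against sub (-6.63), and Prkg1 in low against sub (-8.76). Nos3 passed in low against sub with edgeR (-12.84) and DESeq2 (-12.44) and in high against sub with edgeR (-12.84) and DESeq2 (-12.28), and missed the threshold in low against neg in the fit of 2 populations (-9.20, limma adjusted p = 0.063). Prkg1 missed it in high against neg with edgeR (-6.78). Pde5a, which passed nowhere, turned positive in low against sub with edgeR (0.39) and DESeq2 (0.34) and in low against neg (1.08 and 1.01). Without 1 library the differences that changed sign or call ranged as follows. Pde5a went from -0.77 to 1.82 in sub against neg, -3.34 to 1.40 in low against sub, -4.42 to 0.32 in high against low and -2.62 to 2.11 in low against neg. Nos3 went from -1.62 to 1.06 in sub against neg, and from -10.72 to -8.04 in both low against neg and high against neg. Gucy1a1 went from -1.46 to 0.45 in high against low, and Prkg1 from -0.48 to 2.10 in high against low and from -10.44 to -7.86 in high against neg. The likeness values were recomputed with other pseudocounts and equal totals, settings added after the data were seen, and none moved beyond the tolerance.

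With the replicate number as a block, 1 gene passed in high against low, and 0 pathway genes in low against sub and 1 in high against sub, with Npr3 lost in both and Pde1a lost in high against neg. The block also gained a call: in high against neg it called 2 pathway genes higher and 2 lower, where the main fit called 1 and 3. The sample descriptions give libraries of the same number a common suffix. Neither suffix nor number is said to mark an animal: over 18 pairs of same-numbered libraries the correlation of deviations was -0.0161 to 0.0266, 0 pairs were over 0.1, which does not establish a pairing. Still, 8 of the 12 libraries were closest to their own number, a hint from the data and not from the design. The block changed no call of Nos3, Gucy1a1, Pde5a or Prkg1.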
